A study of Mus musculus with 6 samples.

Results

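The genes described are 10 genes of canonical Wnt signalling, of 47205 genes listed, measured in whole ovaries of mice aged 9 days post partum (dpp). They were chosen by name: the ligand genes Wnt4 and Wnt6, Rspo1 and Lgr5, which encode a Wnt-enhancing secreted protein and its receptor, and the Wnt target and feedback genes Axin2, Lef1, Nkd1, Sp5, Znrf3 and Rnf43. Each name matched 1 gene of the table. RNA sequencing compared 3 libraries from ovaries in which Srsf1, the gene of a serine/arginine-rich splicing factor, had been knocked out in granulosa cells (conditional knockout, cKO) with 3 libraries from wild-type (WT) ovaries. All 6 libraries are of total RNA from ovaries of the same age. The sources used here do not give the mouse strain, the Cre driver, the allele or the number of animals behind a library, and p-values therefore measure only the spread between these libraries, which may be technical.

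In the canonical Wnt pathway, secreted Wnt proteins bind Frizzled and LRP receptors, beta-catenin is spared from degradation, and it enters the nucleus to switch on target genes with DNA-binding TCF/LEF factors. R-spondins such as RSPO1 bind LGR receptors and the membrane ubiquitin ligases ZNRF3 and RNF43, which otherwise remove Frizzled receptors from the cell surface. In the fetal mouse ovary, RSPO1 and WNT4 act in the supporting cell lineage to drive ovarian and oppose testicular differentiation, and pregranulosa cells give rise to the granulosa cells of follicles. LGR5 marks ovarian surface epithelium and a population of pregranulosa cells derived from it. A whole ovary holds all of these cells, together with oocytes, stroma, vessels and leukocytes, so that a lower level of a transcript cannot be told apart from fewer cells that carry it.

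Values are the authors' FPKM (fragments per kilobase of a gene, here with the authors' own scaling between libraries), and their steps gave back the whole reads behind them. The libraries held 18.6 to 18.7 M recovered reads in cKO and 16.8 to 18.5 M in WT. Replicate 2 of cKO stood apart from the rest: limma's library weights, which are low for a library that strays from its group, put it at 0.379, against 0.745 to 2.96 for the other 5, and results that rest on it are also given without it. Srsf1 measured 20.3, 26.9 and 21.4 FPKM in replicates 1, 2 and 3 of cKO, against 39.9, 49.6 and 46.3 FPKM in WT replicates 1, 2 and 3 (chromosome 11, 87937325 to 87944583, plus strand; coordinates here are those of the table, whose chromosome accessions are of GRCm39). Every cKO library was thus below every WT library, although limma, the linear model fitted across all genes on log2(FPKM + 1), gave an adjusted p of 0.32. None of 10 granulosa and none of 12 oocyte marker genes was at 0 in any library. None of 8 oviduct marker genes was at 0 either, so being above 0 does not test the tissue label.

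The 10 genes did not change past the threshold. Of the 14714 genes that averaged 1 FPKM or more and were tested, all 10 among them, limma called 0 of the 10 higher in cKO at a Benjamini-Hochberg adjusted p under 0.05, where 0.0068% of all tested genes were called, and 0 lower, where 0.0136% were called. At an unadjusted limma p under 0.05, 2 of the 10 were higher, against 3.64% of all tested genes, and 0 were lower, against 2.7%. With limma-voom on the recovered reads, 0 of all 14714 tested genes were called, so the 0 among the 10 adds nothing. The most abundant of the genes, Wnt6, Wnt4, Nkd1 and Rspo1, overlapped between cKO and WT. The transcription factor genes Sp5 and Lef1 had cKO libraries that all lay above the WT libraries, and the ligase gene Znrf3 had cKO libraries that all lay below them. In 2 of 10 genes the cKO libraries were all above the WT libraries, where this held for 6.37% of all tested genes, and in 1 of 10 all below, where it held for 5.89%. Without WT replicate 1 the first count was 4 (with Rspo1 and Axin2), against 12.1% of all tested genes, and without WT replicate 2 the second was 2 (with Rnf43), against 8.57%. Rescaling the libraries to a common total also made the second count 2, against 8.91%. The median difference of the 10 genes was 0.09, with 7 higher and 3 lower, beside -0.00014 over all tested genes, of which 7352 were higher and 7362 lower; the authors' scaling sets that last median near 0.

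**Figure D1:**
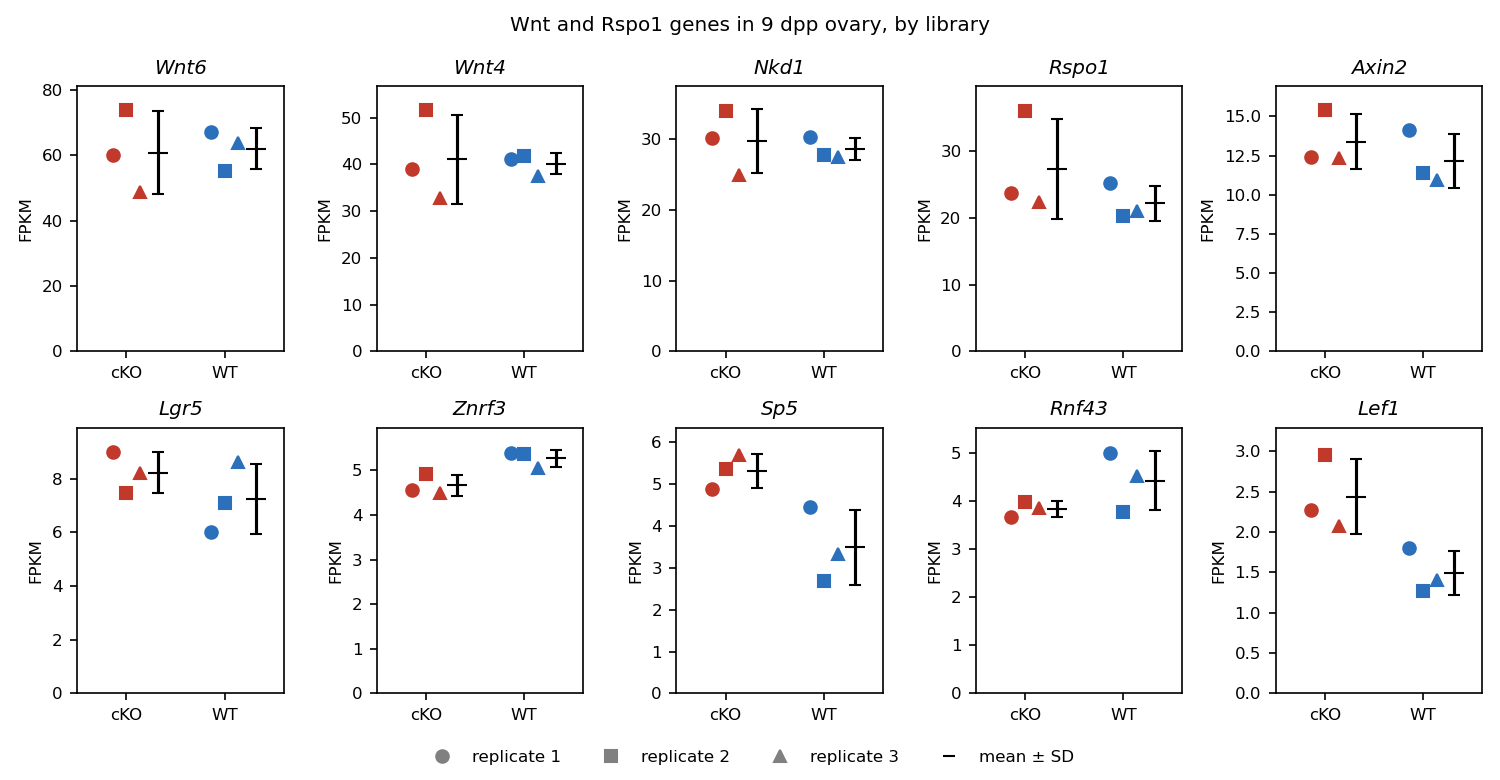
FPKM of the 10 genes in each library, cKO on the left and WT on the right of each panel, in order of mean FPKM over the 6 libraries. Symbols give the replicate and black bars the mean ± SD (n = 3 each). Replicate 2 (square) is the highest cKO library for Wnt6, Wnt4, Nkd1, Rspo1, Axin2, Znrf3, Rnf43 and Lef1, and only Sp5, Lef1 and Znrf3 show no overlap between the groups.

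The promoters of Sp5 and Lef1, the genes with every cKO library above every WT library, and of Axin2, the widely used Wnt reporter gene, are shown because TCF/LEF factors act on such sequences. They are 300 bases from RefSeq (GRCm38.p6), 250 before and 50 after the annotated start, on the plus strand: chr2:70474673-70474972 for Sp5, the first of 4 windows listed for Lef1 at chr3:131110047-131110346, and chr11:108920099-108920398 for Axin2. Capitals mark CTTTGAT or CTTTGAA, the TCF/LEF-type motifs searched on both strands, which do not overlap each other.
Sp5: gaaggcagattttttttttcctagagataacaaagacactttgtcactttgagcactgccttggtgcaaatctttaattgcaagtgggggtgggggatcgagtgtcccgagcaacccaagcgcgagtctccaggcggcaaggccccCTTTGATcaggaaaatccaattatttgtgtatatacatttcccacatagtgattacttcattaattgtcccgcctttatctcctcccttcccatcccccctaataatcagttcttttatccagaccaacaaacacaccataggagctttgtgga
Lef1: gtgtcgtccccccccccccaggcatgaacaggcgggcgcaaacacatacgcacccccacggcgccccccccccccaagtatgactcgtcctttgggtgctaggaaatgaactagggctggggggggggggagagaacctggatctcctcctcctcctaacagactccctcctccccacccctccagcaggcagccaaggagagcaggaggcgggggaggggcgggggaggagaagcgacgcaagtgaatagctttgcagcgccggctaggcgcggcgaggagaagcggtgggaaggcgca
Axin2: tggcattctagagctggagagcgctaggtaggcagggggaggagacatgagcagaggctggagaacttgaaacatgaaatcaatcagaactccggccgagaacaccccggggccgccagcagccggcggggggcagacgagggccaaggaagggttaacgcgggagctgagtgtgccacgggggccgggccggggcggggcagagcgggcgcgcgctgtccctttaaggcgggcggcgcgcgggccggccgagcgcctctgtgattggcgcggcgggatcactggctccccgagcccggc
The table held promoters of 8 of the 10 genes, 12 windows in all (Rspo1, Wnt4, Wnt6, Axin2, Lef1, Nkd1, Sp5 and Rnf43). A motif was found in 1 of the 12, the CTTTGAT of Sp5 whose first base lies at -104 from the annotated start, where 8.65% of all 32851 promoters of this length held one. The windows of Wnt4 and Wnt6 were 84.3% and 76.7% G and C, against a median of 52.7% over all promoters. Such a match is a run of letters and not a measured binding site.

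Among the ligands, Wnt6 was the most abundant of the 10 genes per length (chromosome 1, 74793499 to 74824481, plus strand). It measured 60, 73.9 and 48.7 FPKM in replicates 1, 2 and 3 of cKO, against 67.3, 55.1 and 63.6 FPKM in WT. The cKO libraries held both the highest and the lowest of the 6 values, and the WT libraries lay between them. The means were 60.9 ± 12.6 FPKM in cKO and 62 ± 6.24 FPKM in WT (SD, n = 3 each), a log2 difference of -0.04 (SE 0.162, 95% interval -0.42 to 0.34, limma adjusted p = 0.97). The interval spans a ratio of 0.746 to 1.27 on the FPKM + 1 scale. The sign turned without cKO replicate 3 (0.11) and without WT replicate 1 (0.019). Wnt6 is listed with a long span that also holds the long noncoding gene Gm29539 on the other strand, at 0.875 to 1.79 FPKM in cKO and 1.38 to 2.80 FPKM in WT, and reads of this pair cannot be told apart without strand.

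Wnt4, whose product is required for female development of the gonad, followed the same order of libraries within cKO (chromosome 4, 137004946 to 137026812, plus strand). It measured 38.9, 51.6 and 32.9 FPKM in replicates 1, 2 and 3 of cKO, against 41.2, 41.7 and 37.6 FPKM in WT. WT libraries lay close together, within the wider cKO range. Means were 41.1 ± 9.55 FPKM in cKO and 40.2 ± 2.25 FPKM in WT (log2 difference 0.01, SE 0.161, 95% interval -0.37 to 0.39, limma adjusted p = 0.992), an interval that on the FPKM + 1 scale spans a ratio of 0.774 to 1.31. Its sign depends on the scaling, with -0.052 after rescaling the libraries to a common total and -0.034 after quantile normalization. The ratio of Wnt6 to Wnt4 within a library was 1.54, 1.43 and 1.48 in cKO, against 1.63, 1.32 and 1.69 in WT. Relative to its mean, this ratio spread less than either level over the cKO libraries and more than either level over the WT libraries. Without cKO replicate 2 the difference of Wnt4 was -0.16, and without WT replicate 3 it was -0.035.

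Rspo1 encodes the secreted activator that stabilises Frizzled receptors through LGR proteins (chromosome 4, 124880197 to 124902895, plus strand). It measured 23.7, 35.9 and 22.4 FPKM in replicates 1, 2 and 3 of cKO, against 25.2, 20.2 and 21.1 FPKM in WT. Replicate 2 of cKO was far above the other 5 libraries, which ran from 20.2 to 25.2 FPKM and mixed the groups. Means were 27.3 ± 7.47 FPKM in cKO and 22.1 ± 2.65 FPKM in WT (log2 difference 0.27, SE 0.187, 95% interval -0.17 to 0.71, limma adjusted p = 0.83). Without cKO replicate 2 the difference was 0.061. The ratio of Rspo1 to Wnt4 was 0.609, 0.696 and 0.681 in cKO, against 0.611, 0.484 and 0.560 in WT, and the groups overlapped by the narrow margin of cKO replicate 1 and WT replicate 1. A noncoding gene on the other strand, Gm12930, overlaps the first 804 bases of Rspo1, and it stood at no more than 0.294 FPKM in cKO and 0.351 FPKM in WT.

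Lgr5, a receptor for R-spondins and itself a Wnt target, had another order of libraries (chromosome 10, 115286219 to 115423685, minus strand). It measured 9, 7.46 and 8.22 FPKM in replicates 1, 2 and 3 of cKO, against 6.03, 7.1 and 8.62 FPKM in WT. Here cKO replicate 2 was the lowest of its group, and WT replicate 3 lay within the cKO range. Means were 8.23 ± 0.773 FPKM in cKO and 7.25 ± 1.3 FPKM in WT (log2 difference 0.17, SE 0.138, 95% interval -0.16 to 0.50, limma adjusted p = 0.848). It was 0.061 without WT replicate 1. The gene A930009A15Rik, on the other strand within the span of Lgr5, was at no more than 0.0112 FPKM in cKO and 0.0124 FPKM in WT.

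Znrf3 and Rnf43 encode the ubiquitin ligases that R-spondins inhibit, and both are induced by Wnt signalling in other tissues. Znrf3 (chromosome 11, 5226329 to 5394847, minus strand) measured 4.56, 4.93 and 4.5 FPKM in replicates 1, 2 and 3 of cKO, against 5.39, 5.37 and 5.06 FPKM in WT. Every cKO library was below every WT library, with a gap between the nearest values, 4.93 and 5.06 FPKM, that was smaller than the SD of either group. Means were 4.66 ± 0.229 FPKM in cKO and 5.27 ± 0.186 FPKM in WT (log2 difference -0.15, SE 0.0932, 95% interval -0.37 to 0.07, limma adjusted p = 0.821). Rnf43 (chromosome 11, 87553913 to 87626365, plus strand) measured 3.66, 3.99 and 3.85 FPKM in cKO, against 4.99, 3.77 and 4.52 FPKM in WT. WT replicate 2 lay inside the narrow cKO range, and the other WT libraries lay above it. Means were 3.84 ± 0.167 FPKM in cKO and 4.43 ± 0.616 FPKM in WT (log2 difference -0.16, SE 0.119, 95% interval -0.44 to 0.12, limma adjusted p = 0.833). It was -0.086 without WT replicate 1. Of the listed genes that overlap Rnf43, Gm25968 was above 0 in cKO replicate 3 alone, at 0.545 FPKM, and 1110028F11Rik in WT replicate 3 alone, at 0.02 FPKM. Rnf43 lies on the same chromosome as the targeted gene, 311 kb from Srsf1. Axin2 and Znrf3 lie 20.9 and 82.5 Mb from Srsf1. The nearest listed genes that overlap none of the 10 were Gm38472 for Rspo1, Cdc42 for Wnt4, Gm32099 for Wnt6, Gm8960 for Lgr5, Gm46298 for Axin2, Gm36603 for Lef1, Gm35162 for Nkd1, Gad1os for Sp5, Gm46268 for Znrf3 and Supt4a for Rnf43, between 212 bases (Gm35162) and 20195 bases (Cdc42) away.

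Sp5 and Lef1 encode transcription factors that Wnt signalling induces, SP5 a zinc finger repressor and LEF1 a DNA-binding partner of beta-catenin. Sp5 (chromosome 2, 70305267 to 70308070, plus strand) measured 4.89, 5.36 and 5.69 FPKM in replicates 1, 2 and 3 of cKO, against 4.46, 2.68 and 3.33 FPKM in WT. All cKO libraries were higher, and WT replicate 1 was the closest to them. Means were 5.31 ± 0.402 FPKM in cKO and 3.49 ± 0.902 FPKM in WT, a ratio of 1.52, with a log2 difference of 0.51 (SE 0.16, 95% interval 0.13 to 0.89, limma adjusted p = 0.743). The gene rests on 194 to 219 reads per cKO library and 102 to 161 per WT library. Its promoter is the one printed with a CTTTGAT.

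Lef1 was the lowest of the 10 genes (chromosome 3, 130903946 to 131018006, plus strand). It measured 2.27, 2.96 and 2.08 FPKM in replicates 1, 2 and 3 of cKO, against 1.8, 1.27 and 1.41 FPKM in WT. Replicate 2 was again the highest cKO library, and every cKO library lay above WT. Means were 2.44 ± 0.463 FPKM in cKO and 1.49 ± 0.276 FPKM in WT, a ratio of 1.63, with a log2 difference of 0.46 (SE 0.157, 95% interval 0.09 to 0.83, limma adjusted p = 0.761). The pseudocount of 1 understates a change at this level: limma-voom on its 173 to 258 reads per cKO library and 105 to 141 per WT library gave 0.71 (adjusted p = 0.780). For Sp5, Lef1 and Znrf3 alike, an exact two-sided permutation test of the single gene gave p = 0.1, the smallest that 3 against 3 libraries allow. Every gene whose groups do not overlap gets this value, so it adds nothing to the lack of overlap.

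**Figure D2:**
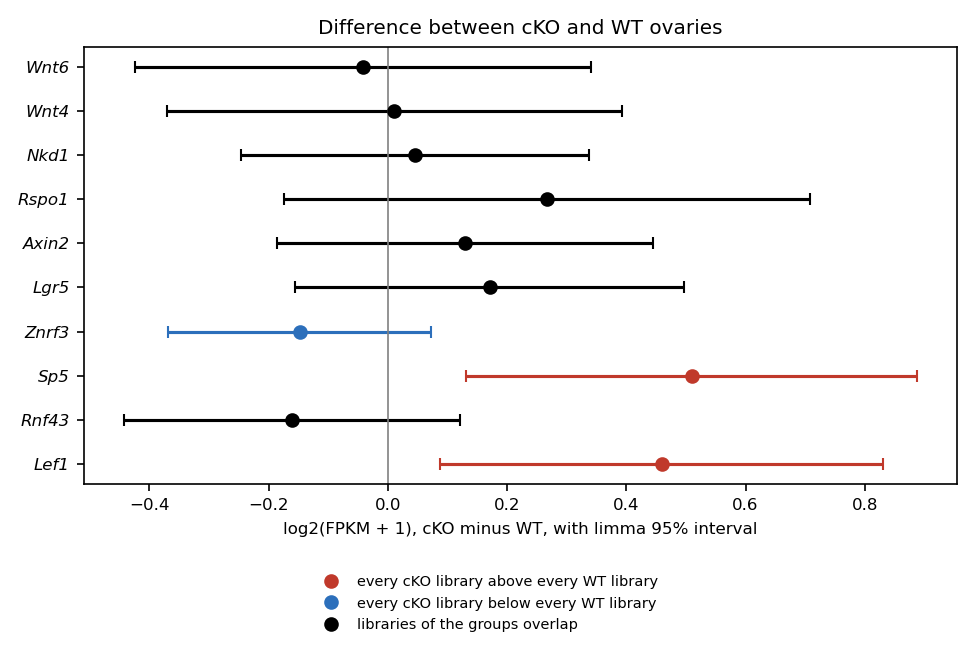
Difference between cKO and WT on the log2(FPKM + 1) scale for each of the 10 genes, points with limma's 95% interval (unadjusted for the number of genes), most abundant gene at the top. The intervals of Sp5 (0.13 to 0.89) and Lef1 (0.09 to 0.83) lie above 0, and the other 8 span it.

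Axin2 and Nkd1 encode negative feedback regulators that dampen the pathway at the beta-catenin destruction complex and at Dishevelled. Axin2 (chromosome 11, 108808654 to 108841609, plus strand) measured 12.4, 15.4 and 12.3 FPKM in replicates 1, 2 and 3 of cKO, against 14.2, 11.4 and 10.9 FPKM in WT. WT replicate 1 was above cKO replicates 1 and 3, so that the groups overlapped through that library. Means were 13.4 ± 1.77 FPKM in cKO and 12.2 ± 1.74 FPKM in WT (log2 difference 0.13, SE 0.133, 95% interval -0.19 to 0.45, limma adjusted p = 0.872). Nkd1 (chromosome 8, 89247961 to 89321515, plus strand) measured 30.1, 34 and 24.9 FPKM in cKO, against 30.3, 27.7 and 27.5 FPKM in WT. All WT values fell within the cKO range. Means were 29.7 ± 4.55 FPKM in cKO and 28.5 ± 1.54 FPKM in WT (log2 difference 0.05, SE 0.124, 95% interval -0.25 to 0.34, limma adjusted p = 0.952). Its sign turned after rescaling to a common total (-0.016) and without cKO replicate 2 (-0.055).

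By mean FPKM over the 6 libraries, the levels ran from Wnt6 at 61.4 through Wnt4 at 40.6, Nkd1 at 29.1, Rspo1 at 24.7, Axin2 at 12.8, Lgr5 at 7.74, Znrf3 at 4.97, Sp5 at 4.40 and Rnf43 at 4.13 to Lef1 at 1.97. The ranges over libraries overlapped between each neighbour from Wnt6 to Rspo1 and between each from Znrf3 to Rnf43, so that their order is not fixed beyond the spread. The ranges were apart between Rspo1 and Axin2, Axin2 and Lgr5, Lgr5 and Znrf3, and Rnf43 and Lef1. Wnt6 was more abundant than 94.5% of tested genes and Lef1 than 13.6%. Across the 6 libraries the highest value was 2.32 times the lowest for Lef1 and 2.13 times for Sp5, against 1.20 times for Znrf3.

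Replicate 2 of cKO held the highest value of 6 of the 10 genes (Wnt6, Wnt4, Nkd1, Rspo1, Axin2 and Lef1), where 24.3% of all tested genes were highest in it and 27.4% lowest, the largest share of the 6 libraries in either direction. Replicate 3 of cKO held the lowest value of 4 of the 10 (Wnt6, Wnt4, Nkd1 and Znrf3), where 15.6% of all tested genes were lowest in it. Relative to each gene's mean over the 6 libraries, the median of the 10 genes was -0.02, 0.27 and -0.09 in cKO replicates 1, 2 and 3, against 0.06, -0.12 and -0.08 in WT replicates 1, 2 and 3, on the log2 scale. Without cKO replicate 2, the difference was 0.031 for Axin2, -0.055 for Nkd1, -0.16 for Wnt4 and -0.19 for Wnt6, and it was 0.50 for Sp5 and 0.35 for Lef1.

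**Figure D3:**
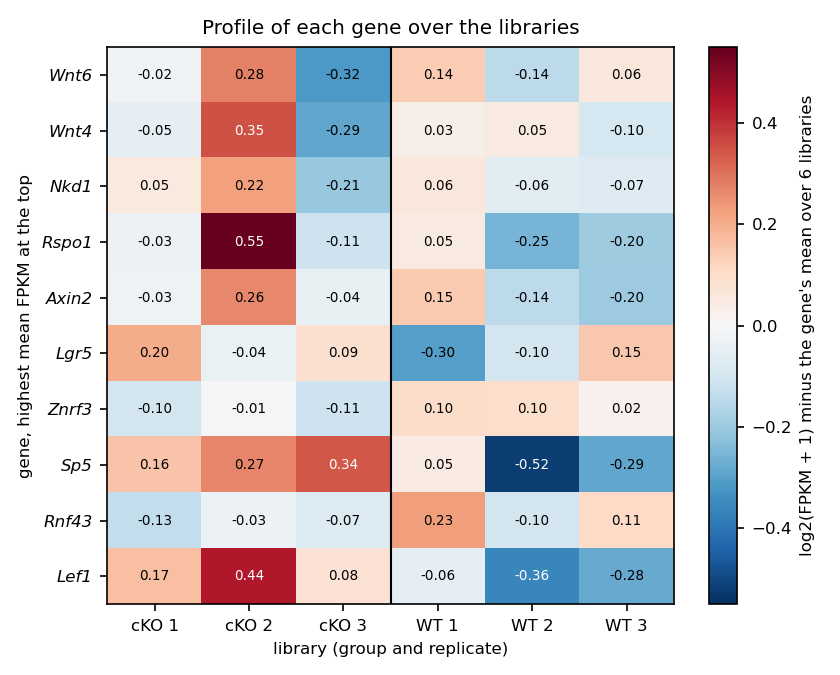
Level of each of the 10 genes in each library, as log2(FPKM + 1) minus the gene's mean over the 6 libraries, with the value printed in each cell (red above and blue below the mean). The column of cKO replicate 2 is red for Wnt6, Wnt4, Nkd1, Rspo1, Axin2, Sp5 and Lef1 and just below 0 for Lgr5, Znrf3 and Rnf43.

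Markers of other cells of the ovary differed between the same libraries. The summed level of 11 surface epithelium markers, all of them higher in cKO and none called, was 258, 355 and 354 FPKM in replicates 1, 2 and 3 of cKO, against 233, 178 and 195 FPKM in WT. The 11 leukocyte and macrophage markers summed to 226, 73.3 and 124 FPKM in cKO, against 43.2, 31.4 and 48.8 FPKM in WT, with all 10 tested members higher and 0 called. The 8 endothelial markers, all of them higher with 0 called, summed to between 161 and 165 FPKM in cKO and between 143 and 147 FPKM in WT. The 10 granulosa markers, 2 higher and 8 lower with 0 called, summed to 1005, 832 and 841 FPKM in cKO, against 1119, 1118 and 1014 FPKM in WT. The 8 oviduct markers, 4 of them tested with 3 higher and 0 called, summed to 35, 52.8 and 36.9 FPKM in cKO, against 32.4, 27.4 and 27.6 FPKM in WT. Epcam was the largest part of this sum in every library, at 20.8, 31.1 and 25.1 FPKM in cKO, against 19.6, 16.0 and 14.9 FPKM in WT. It was the only marker of the oviduct list whose groups did not overlap. Of all tested genes, 6.37% had every cKO library above every WT library, and limma called 0.0068% higher and 0.0136% lower. Replicate 2 of cKO, the highest library for 6 of the 10 genes, was also the highest for the oviduct sum. The same library was the highest for the surface epithelium sum and for the stroma and theca sum, at 355 and 3105 FPKM. Ovgp1, the oviductal glycoprotein gene of the oviduct list, measured 0.23, 2.23 and 0.302 FPKM in cKO, against 0.621, 0.632 and 0.9 FPKM in WT, and is named after its values were seen. The sums of 12 oocyte markers and of 10 stroma and theca markers overlapped between the groups. No marker was at 0 in all 6 libraries, and 1, the leukocyte marker Cd52, was at 0 in a single library (WT replicate 2). Sp5 and Lef1 share the separation of cKO above WT with the surface epithelium, leukocyte and endothelial sums. Within these lists, some surface epithelium and leukocyte markers and most endothelial markers overlapped between the groups. The others lay above WT in every cKO library. Sp5 and Lef1 share the separation also with the oviduct sum, in which Epcam was the only marker to separate. The granulosa sum separated in the opposite direction. The part of these cells in the values of Sp5 and Lef1 was not tested.

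**Figure D4:**
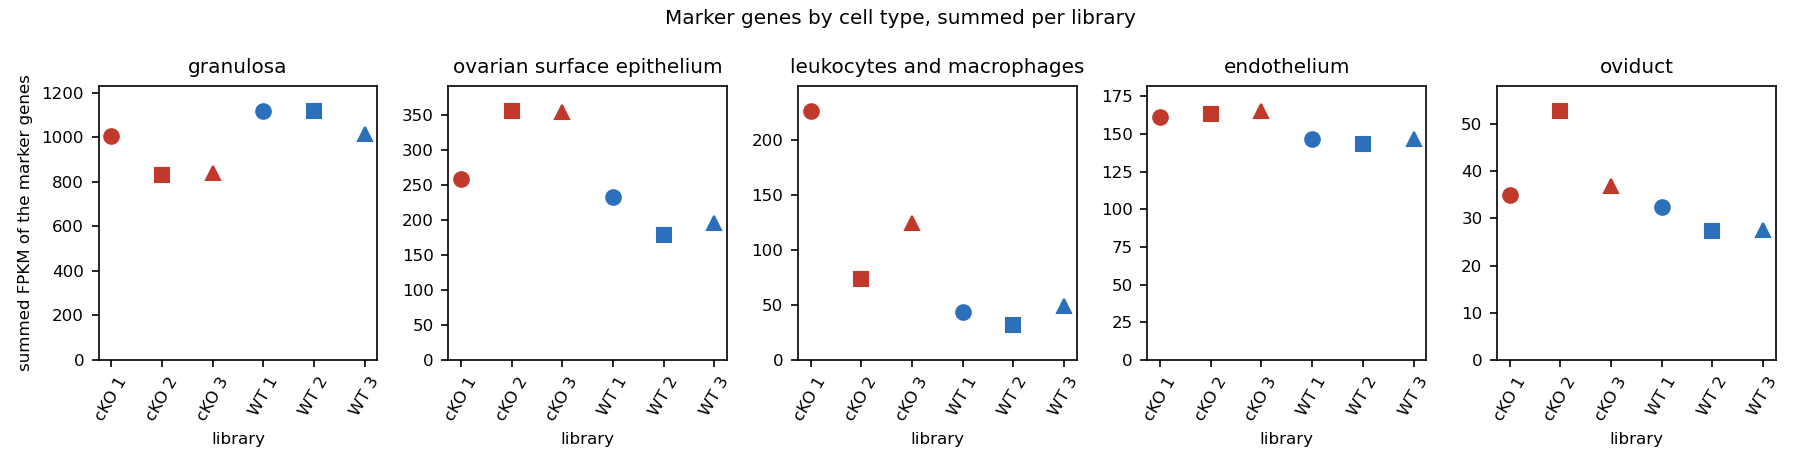
Summed FPKM of the marker genes of 5 cell types in each library, cKO (red) left of WT (blue), symbols as replicates. Granulosa sums lie below WT (1014 to 1119) in all cKO libraries (832 to 1005), and surface epithelium, leukocyte, endothelial and oviduct sums lie above WT in all of them. Epcam is the largest part of the oviduct sum and the only marker of that list without overlap between the groups.

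The rest of the pathway was described from lists by role, none of which held a called gene in either direction. Of 104 genes of the Wnt lists together, 81 were tested, 37 higher and 44 lower, with a median difference of -0.01 beside -0.00014 over all tested genes. In 7 of the 81 every cKO library was above every WT library, and in 3 every one was below, where these held for 6.37% and 5.89% of all tested genes. Of 19 Wnt ligand genes, 7 were tested, 5 higher and 2 lower (median 0.01). After Wnt6 and Wnt4, the most abundant ligands were Wnt2b at 8.43 ± 3.97 FPKM in cKO and 7.81 ± 1.06 FPKM in WT, and Wnt5b at 6.03 ± 0.59 FPKM in cKO and 7.75 ± 0.184 FPKM in WT. The ligands with the smallest p-values besides the 10 genes were Wnt5b, Wnt9a and Wnt5a, with differences of -0.32, 0.27 and 0.12 (limma adjusted p = 0.743, 0.773 and 0.831). The WNT-secretion genes Wls and Porcn differed by -0.09 and 0.16, the second of which was 0.044 without cKO replicate 2.

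Of the 7 R-spondin and LGR genes 6 were tested, 2 higher (Rspo1 and Lgr5) and 4 lower (median -0.04). Rspo2, another R-spondin, measured 7.66, 4.24 and 6.94 FPKM in replicates 1, 2 and 3 of cKO, against 8.08, 8.62 and 8.41 FPKM in WT. Its groups did not overlap, in the direction opposite to the mean difference of Rspo1 (log2 difference -0.40, SE 0.189, limma adjusted p = 0.781), and cKO replicate 2, the highest library for Rspo1, was the lowest for Rspo2. Without that library the difference of Rspo2 was -0.18. Lgr4, the most abundant LGR receptor gene, stood at 23.1 ± 1.37 FPKM in cKO and 23.1 ± 0.755 FPKM in WT, and Rspo3 and Lgr6 differed by -0.13 and -0.08. Of 15 receptor genes 14 were tested, 5 higher and 9 lower (median -0.02). Differences were 0.34 for Ror2, -0.24 for Fzd3 and -0.17 for Fzd1, the receptors with the smallest p-values, and the most abundant, Ryk and Lrp5, differed by -0.00 and -0.13. Fzd3 was -0.081 and Lrp5 0.039 without cKO replicate 2, and Fzd1 was -0.069 without cKO replicate 1. Of 16 genes on the list of secreted Wnt inhibitors, which also holds membrane-bound antagonists, 8 were tested, 4 higher and 4 lower (median -0.05). Among them were Sfrp1 (-0.20), Dkk3 (-0.17), Tpbg (-0.29) and Frzb (0.36). Sfrp1 was -0.043 without cKO replicate 2 and -0.10 without WT replicate 2, and Frzb was 0.16 without WT replicate 1.

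All 16 cytoplasmic transducer genes were tested, 5 higher and 11 lower (median -0.04). Ctnnb1, the gene of beta-catenin, was the most abundant at 211 ± 11.2 FPKM in cKO and 219.6 ± 9.71 FPKM in WT (log2 difference -0.06, SE 0.0946, limma adjusted p = 0.912). The kinase gene Csnk1d differed by 0.00, and Tnks, Amer1 and Apc by -0.41, -0.15 and -0.13. Without cKO replicate 2, in which Tnks stood at 7.81 FPKM, those were -0.019, -0.067 and -0.066; Apc was -0.069 without WT replicate 2. All 14 nuclear effector genes were tested, 6 higher and 8 lower (median -0.03). Lef1 had the smallest p-value of them, and Tcf7, the gene of a related TCF factor, measured 4.31, 4.8 and 4.82 FPKM in cKO, against 4.31, 3.97 and 4.15 FPKM in WT. The groups of Tcf7 met at cKO replicate 1 and WT replicate 1 to within their printed digits (log2 difference 0.13). The corepressor genes Tle3 and Tle4 differed by 0.18 and -0.06, and Pygo1 and Ctbp1 by -0.16 and 0.04.

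The list of Wnt feedback targets, to which 7 of the 10 genes belong, had 17 of 20 genes tested, 12 higher and 5 lower, with a median of 0.13 beside -0.00014 over all tested genes. In 4 of the 17 every cKO library was above every WT library (Sp5, Lef1, Tcf7 and Ccnd1), where this held for 6.37% of all tested genes, and in 1 (Znrf3) below, where it held for 5.89%. Ccnd1, the cyclin D1 gene, measured 7.73, 8.08 and 8.29 FPKM in cKO, against 7.26, 5.99 and 6.33 FPKM in WT (log2 difference 0.27, limma adjusted p = 0.768). Cd44, the gene of a hyaluronan receptor, differed by 0.31, Tnfrsf19 by 0.09 and Myc by 0.04. The list's median was 0.04 without cKO replicate 2. Of 22 tested pregranulosa and granulosa genes, 8 were higher and 14 lower (median -0.11), with 7 below WT in every cKO library and 1 above, against 5.89% and 6.37% of all tested genes. Among the 7, Foxl2, the transcription factor gene of granulosa identity, measured 132, 124 and 105 FPKM in cKO, against 138, 224 and 204 FPKM in WT (log2 difference -0.63, limma adjusted p = 0.743). Hsd3b1, Nr5a2 and Inha differed by -1.88, -0.62 and -0.06, and Irx3 by 0.57. Both lists were chosen with earlier results of these data known, so their counts beside all tested genes are a description and no independent finding.

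**Figure D5:**
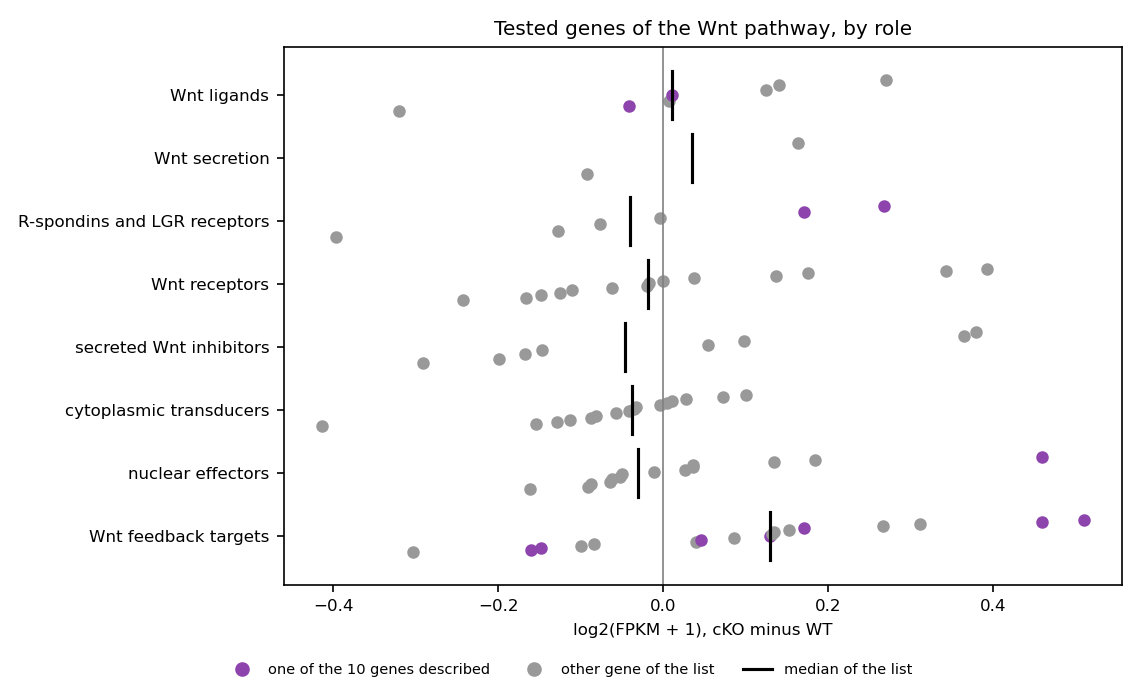
Difference between cKO and WT for each tested gene of the Wnt pathway lists on the log2(FPKM + 1) scale, with the list's median as a black line and the 10 genes described in purple. Medians lie between -0.05 and 0.04 except for the feedback targets, at 0.13.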

How the data were processed

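Total RNA of whole ovaries was sequenced in 6 libraries, grouped by the genotype and replicate number in the labels. The authors deposited FPKM per gene, with gene length and position. The submitters' processing notes name HISAT2 2.0.5 with the builds GRCm39 and mm10 and give neither build a role; sources used here do not give the read counter, the annotation release or the strandedness. Gene length times the deposited FPKM came in whole multiples of a single step in 100% of values above 0 (within 0.01), which gave back the reads. The authors' denominators matched median-of-ratios size factors, so no further scaling was applied. Gene-level values say nothing about splice forms.

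The 14714 of 47205 genes that averaged 1 FPKM or more were tested on log2(FPKM + 1), on which low genes show less than their full change. limma 3.58.1 (R 4.3.3, eBayes with a trend, two-sided) was used, with Benjamini-Hochberg adjustment over all tested genes and a threshold of 0.05; it and limma-voom were tested on simulated data. Differences are cKO minus WT with the moderated SE and its 95% interval, and tables were joined with pandas 2.3.3. Alternatives were other pseudocounts, filters, scalings, priors, library weights, protein-coding genes only, the replicate number as a block, limma-voom on recovered reads and leaving out each library.

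The 10 genes, the lists and the tests were chosen with earlier results of these data known. Named besides the 10 genes are Srsf1 and Foxl2, from each list up to 3 genes with the smallest p and up to 2 with the highest mean, genes that overlap one of the 10 or lie nearest to it, and the 3 genes nearest in profile to Rspo1, Wnt4 and Lgr5. Wnt1, Wnt3, Wnt7a, Wnt7b, Wnt8a, Notum, Ovgp1, Epcam and Cd52 are named outside this rule, after their values were seen. Sequences are RefSeq's. Intervals cover only the spread between libraries.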

Additional observations from a re-analysis of the deposited data

How the results depend on the processing

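Across 14 other settings and 6 with a library left out, 0 of the 10 genes were called, with a smallest adjusted p of 0.338 (Lef1 with library weights, limma). Rspo1, Lgr5, Axin2, Lef1, Sp5, Znrf3 and Rnf43 kept their direction in every setting that tested them. Other filters and priors, protein-coding genes only and the replicate block cannot alter a difference, so only the remaining settings could turn a sign. With a single library left out, the differences ran from 0.061 to 0.39 for Rspo1, 0.061 to 0.29 for Lgr5, 0.031 to 0.24 for Axin2, 0.35 to 0.55 for Lef1, 0.38 to 0.66 for Sp5, -0.18 to -0.13 for Znrf3 and -0.25 to -0.086 for Rnf43. Library weights gave 0.13 for Rspo1 and 0.047 for Axin2, and -0.20 for Rspo2, -0.19 for Tnks, -0.10 for Sfrp1, -0.011 for Lrp5 and 0.22 for Frzb. Wnt4 turned to -0.052 after rescaling to a common total, -0.034 after quantile normalization and -0.053 with library weights, and ran from -0.16 to 0.16 with a library left out. Nkd1 turned to -0.016 after rescaling and ran from -0.055 to 0.16 with a library left out, and Wnt6 ran from -0.19 to 0.11. The filter at 5 FPKM drops Lef1, Sp5, Znrf3 and Rnf43, so that 0 of the genes left had every cKO library above or below WT. Rescaling gave 2 below, against 8.91% of all tested genes. Leaving out a library can only keep or raise such counts, and it gave 2 to 4 above and 1 to 2 below. The 4 above were without WT replicate 1, against 12.1% of all tested genes. The 2 below were without WT replicate 2, against 8.57%.

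Over all tested genes, 1 higher call became 0 with no filter, a filter at 5 FPKM, pseudocounts of 0.1 and 0.5, quantile normalization, protein-coding genes only, the replicate block and limma-voom, and 3 with library weights. The 2 lower calls became 0 with no filter, the replicate block and limma-voom, and 1 with protein-coding genes only. Leaving out a library gave 0 to 1 higher and 0 to 1 lower.

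Replicate numbers gave no pairing: over tested genes, the deviations from the group means correlated at 0.18, -0.08 and -0.06 between libraries of the same number, and the highest correlation of cKO replicates 2 and 3 was with another number. With the replicate number as a block, the differences cannot change, since every replicate number is in both groups. The limma adjusted p was then 0.819 for Sp5 and Lef1.

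The median of the Wnt ligands was 0.11 with no filter and 0.11 with a filter at 0.1 FPKM, and ran from -0.082 to 0.11 with a library left out. It was -0.092 for Wnt secretion and -0.18 for secreted inhibitors with a filter at 5 FPKM, and -0.17 for secreted inhibitors with limma-voom. Rescaling gave -0.087 for nuclear effectors and -0.17 for granulosa genes, and library weights 0.047 for feedback targets. With a library left out, the medians ran from -0.088 to 0.17 for R-spondins and LGR receptors, -0.049 to 0.019 for nuclear effectors and 0.041 to 0.12 for feedback targets.

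Pathway genes near 0 turned sign in single settings. Wnt2b was -0.0059 with a pseudocount of 0.1, -0.048 rescaled and -0.016 with limma-voom. Rescaling gave -0.059 for Csnk1d, -0.028 for Ctbp1 and -0.021 for Myc. Quantile normalization gave -0.052 for Csnk1d and -0.042 for Ctbp1. Library weights gave -0.027 for Ctbp1, 0.019 for Tle4 and 0.084 for Inha. Equal medians gave 0.0024 for Lgr4 and 0.0063 for Ryk. With a library left out the ranges were -0.29 to 0.37 for Wnt2b, -0.19 to 0.0025 for Wls, -0.41 to 0.18 for Rspo3, -0.27 to 0.17 for Lgr6, -0.048 to 0.032 for Lgr4, -0.081 to 0.095 for Ryk, -0.21 to 0.039 for Lrp5, -0.032 to 0.055 for Csnk1d, -0.033 to 0.084 for Ctbp1, -0.22 to 0.14 for Tle4, -0.059 to 0.11 for Myc and -0.19 to 0.074 for Inha. Except where a filter drops genes, the cause was not tested. Among the 10 genes depth limits Lef1 and Sp5 most, with 105 and 102 reads in their lowest library. Of the other tested pathway genes named, Rspo3 had 19 in its lowest library, Frzb 73 and Porcn 80.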

Other observations

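Of the 19 Wnt ligand genes 12 had a mean under 1 FPKM over the 6 libraries, and Wnt1 and Wnt3 were listed at 0 in every library. The highest of the 12 was Wnt7a, at 0.279, 2.45 and 0.236 FPKM in cKO replicates 1, 2 and 3, against 0.252, 0.324 and 0.436 FPKM in WT. Its mean of 0.663 FPKM rests on cKO replicate 2: without that library it was 0.305 FPKM, and Wnt8a was the highest at 0.408 FPKM. Wnt7b also had its highest value there, at 0.156, 1.66 and 0.173 FPKM in cKO, against 0.132, 0.262 and 0.294 FPKM in WT. Notum, the gene of a secreted enzyme that inactivates Wnt proteins and a feedback target in other tissues, measured 0.451, 1.62 and 0.565 FPKM in cKO, against 0.496, 0.352 and 0.825 FPKM in WT. All of these were picked with their values in view.

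The genes whose profile over the 6 libraries was most like that of Rspo1, Wnt4 and Lgr5 were picked among 12729 tested protein-coding genes by the root mean square difference of log2(FPKM + 1), each gene centred on its own mean. Als2cl (0.0504), Uqcrb (0.052) and Hes1 (0.0525) were nearest to Rspo1, whose own profile had a root mean square of 0.264. Pts (0.0335), Ewsr1 (0.0351) and Smtn (0.0425) were nearest to Wnt4, with a profile of 0.191. Dcaf13 (0.0391), Ring1 (0.0458) and Psmd14 (0.0553) were nearest to Lgr5, with a profile of 0.171. As for Rspo1, cKO replicate 2 held the highest value of Als2cl, Uqcrb and Hes1, which follows from their choice by profile. Hes1 measured 35.0, 49.0 and 33.7 FPKM in cKO replicates 1, 2 and 3, against 38.1, 29.9 and 32.5 FPKM in WT. All genes of a library share its depth and cell make-up, and with only 6 libraries close matches can arise among many genes.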
